A study of Zea mays with 12 samples.

Results

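The opaque2 mutant (o2) was compared with wild type (WT) in maize endosperm, which stores starch and protein in the kernel, at 16 days after pollination, with attention to genes and functions outside the zeins, the prolamin storage proteins. The members were gene models with FPKM (fragments per kilobase of transcript, scaled to the mapped fragments of a library) of at least 1 in at least 3 of the 6 libraries. They were 15694 of 39448 models, and 15670 of them stood outside the zein list. Each genotype had 3 libraries of field-grown material, which the submitters describe as biological replicates. The labels give neither the o2 allele nor the inbred background of o2 and WT, and they do not say whether WT was a sibling line. The other genotypes of the series, PbfRNAi and PbfRNAi;o2, are knock-downs of the gene for PBF, a DNA-binding partner of O2, without and with the o2 mutation, and their libraries entered 1 alternative fit only.

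Opaque2 (O2) is a transcription factor of the bZIP family that is made in the endosperm and activates zein genes, in part together with the Dof protein PBF. Kernels of the mutant are soft and opaque, with less zein and more lysine in their protein, which is what the gene is best known for. Earlier work in maize also tied O2 to genes outside the zeins, among them a ribosome-inactivating albumin, a pyruvate phosphate dikinase and an enzyme that degrades lysine.

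The o2 transcript (GRMZM2G015534) stood at FPKM 0.677, 0.165 and 0.560 in o2, against 229.7, 195 and 189 in WT. The level in every o2 library was under 1 and the groups were far apart (scaled log2 difference −7.48 ± 0.14, SE; limma adjusted p = 6.3e-07). FPKM sums ran from 488408 to 491739 in o2 and from 430405 to 472141 in WT. FPKM are not counts, so the read depth is unknown. The zein list held 15.9% to 18.9% of the sum in o2 and 25.7% to 33.3% in WT. FPKM is a share of a library, and the median tested gene stood 0.44 higher in o2 on the log2(FPKM + 1) scale as deposited and at −0.003 after median-of-ratios scaling. Values called scaled are therefore relative to the typical gene. "Rose" and "fell" are used only of genes that passed limma's test (adjusted p under 0.05) on both scales in the same direction. Across tested genes, replicates 2 and 3 correlated at r = 0.995 in o2 and 0.990 in WT, and replicate 1 with either of them at 0.956 to 0.970. Genes are not independent replicates. As deposited, both green tissue markers together stood at 0.132 to 0.394 in o2 and 0.0187 to 0.0485 in WT. The 3 genes listed as pericarp and maternal markers, p1, gl1 and EREB55, stood at 0 in o2 and at most 0.0145 in WT. Whether these 3 are expressed in the maternal tissue of these lines was not tested, so their levels do not show how much of it was present. In bulk tissue, fewer cells of a type and less RNA per cell cannot be told apart.

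Outside the zein list, 1435 genes rose and 480 fell in o2, abundant models without a name included. Over all tested genes, zeins included, 1435 were higher (9.14%) and 495 lower (3.15%), or 12.3% in either direction. The median scaled log2 difference was 0.62 among rises and −1.09 among falls, and a fall had to exceed the shift between the scales to pass on both. Changes of more than 2 on the log2 scale were found in 56 rises and 46 falls. On both scales every o2 library lay above every WT library in 3047 of all tested genes (19.4%), and below in 664 (4.23%). The balance depended on the scale. After scaling 1435 genes were higher and 1427 lower (9.09%), so that 50.1% of calls were higher. As deposited 8394 were higher (53.5%) and 497 lower (3.17%), or 94.4% higher. The rule of both scales kept all 1435 scaled rises but only 495 of the 1427 scaled falls. A list with no fall can therefore hold genes that were lower after scaling. Every list count below is to be read beside 9.14% higher and 3.15% lower. With the replicate number as a block the counts on both scales were 2173 higher and 608 lower, and without both replicate 1 libraries they were 4095 and 1003. That last fit keeps only replicates 2 and 3, which lie close together (r = 0.995 in o2 and 0.990 in WT). Its p-values measure only the spread between those libraries, so its larger counts do not show that more genes changed. The counts higher and lower were 1703 and 576 without o2 replicate 1, 558 and 317 without o2 replicate 2, 569 and 322 without o2 replicate 3, 573 and 326 without WT replicate 2, 690 and 338 without WT replicate 3, and 2233 and 617 without WT replicate 1. Of the calls outside the zeins, 487 rises and 262 falls passed in all 6 of these fits. The plot of all tested genes shows where the genes described next lie.

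**Figure D1:**
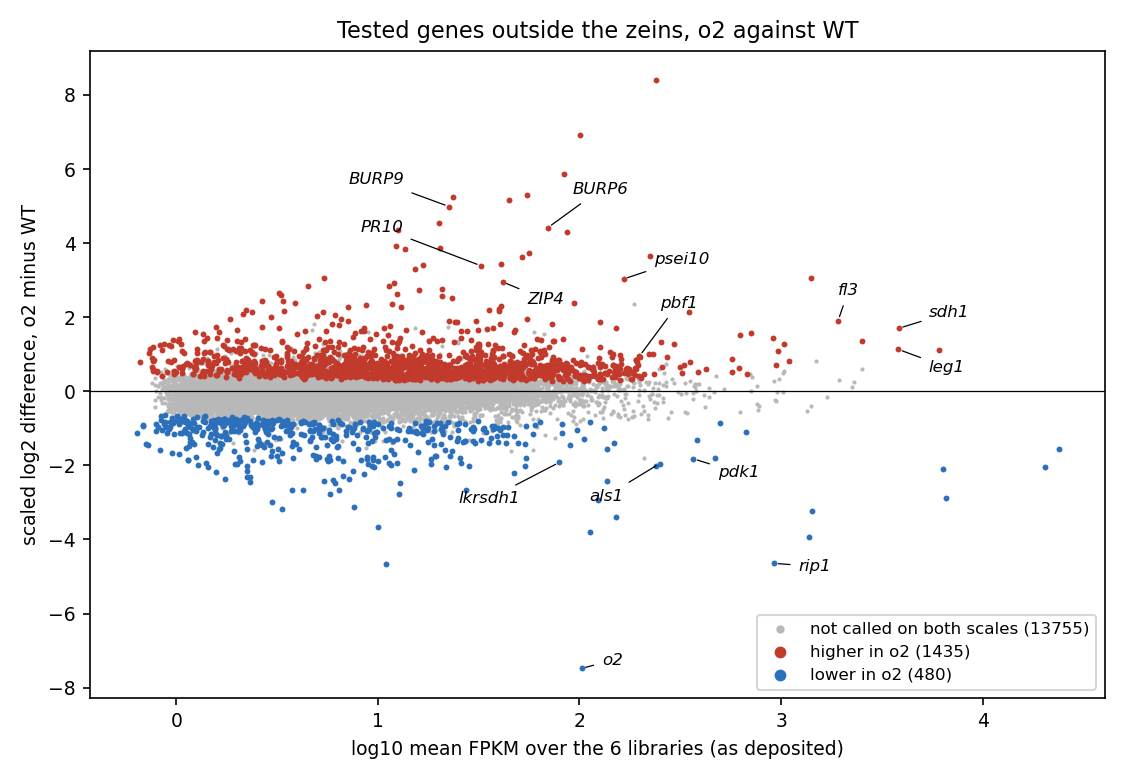
Scaled log2 difference (o2 minus WT) of each tested gene outside the zein list against its log10 mean FPKM over the 6 libraries. Red points are the 1435 genes that rose in o2, blue points the 480 that fell on both scales, and grey points the rest. The o2 transcript lies lowest, rip1 is the lowest of the labelled genes after it, and BURP9 and BURP6 are the highest of the labelled ones.

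Of 5 tested genes that earlier work names as O2 targets outside the zeins, 3 fell and none rose. The gene rip1, which encodes the albumin b-32, a ribosome-inactivating protein, stood at FPKM 129.5, 81.3 and 88.4 in o2, against 1219.6, 1889 and 2139.9 in WT. The lowest WT library held several times the level of the highest o2 library (scaled log2 difference −4.65 ± 0.30, adjusted p = 0.00023). The lysine-degrading enzyme gene lkrsdh1 stood at 65.4, 35.5 and 33.4 in o2, against 95.4, 127 and 120.4 in WT. The groups did not overlap, and o2 replicate 1 was the highest of its group (−1.92 ± 0.30, adjusted p = 0.0065). The pyruvate phosphate dikinase gene pdk1 stood at 238, 201 and 199 in o2, against 636, 469 and 464 in WT (−1.82 ± 0.15, adjusted p = 0.00067). The aspartate kinase gene ASK2, of the first step toward lysine, stood at 6.53, 4.16 and 3.96 in o2, against 6.05, 2.97 and 2.65 in WT, with overlapping groups (adjusted p = 0.81). The bZIP partner gene ohp2 stood at 7.11, 6.86 and 6.42 in o2, against 4.66, 3.40 and 3.56 in WT, higher as deposited (adjusted p = 0.0045) and not called after scaling (adjusted p = 0.23). The call of lkrsdh1 was lost in the fit of all 12 libraries (adjusted p = 0.10). The list was drawn from work on O2 itself, so its direction is not independent of the mutant studied.

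**Figure D2:**
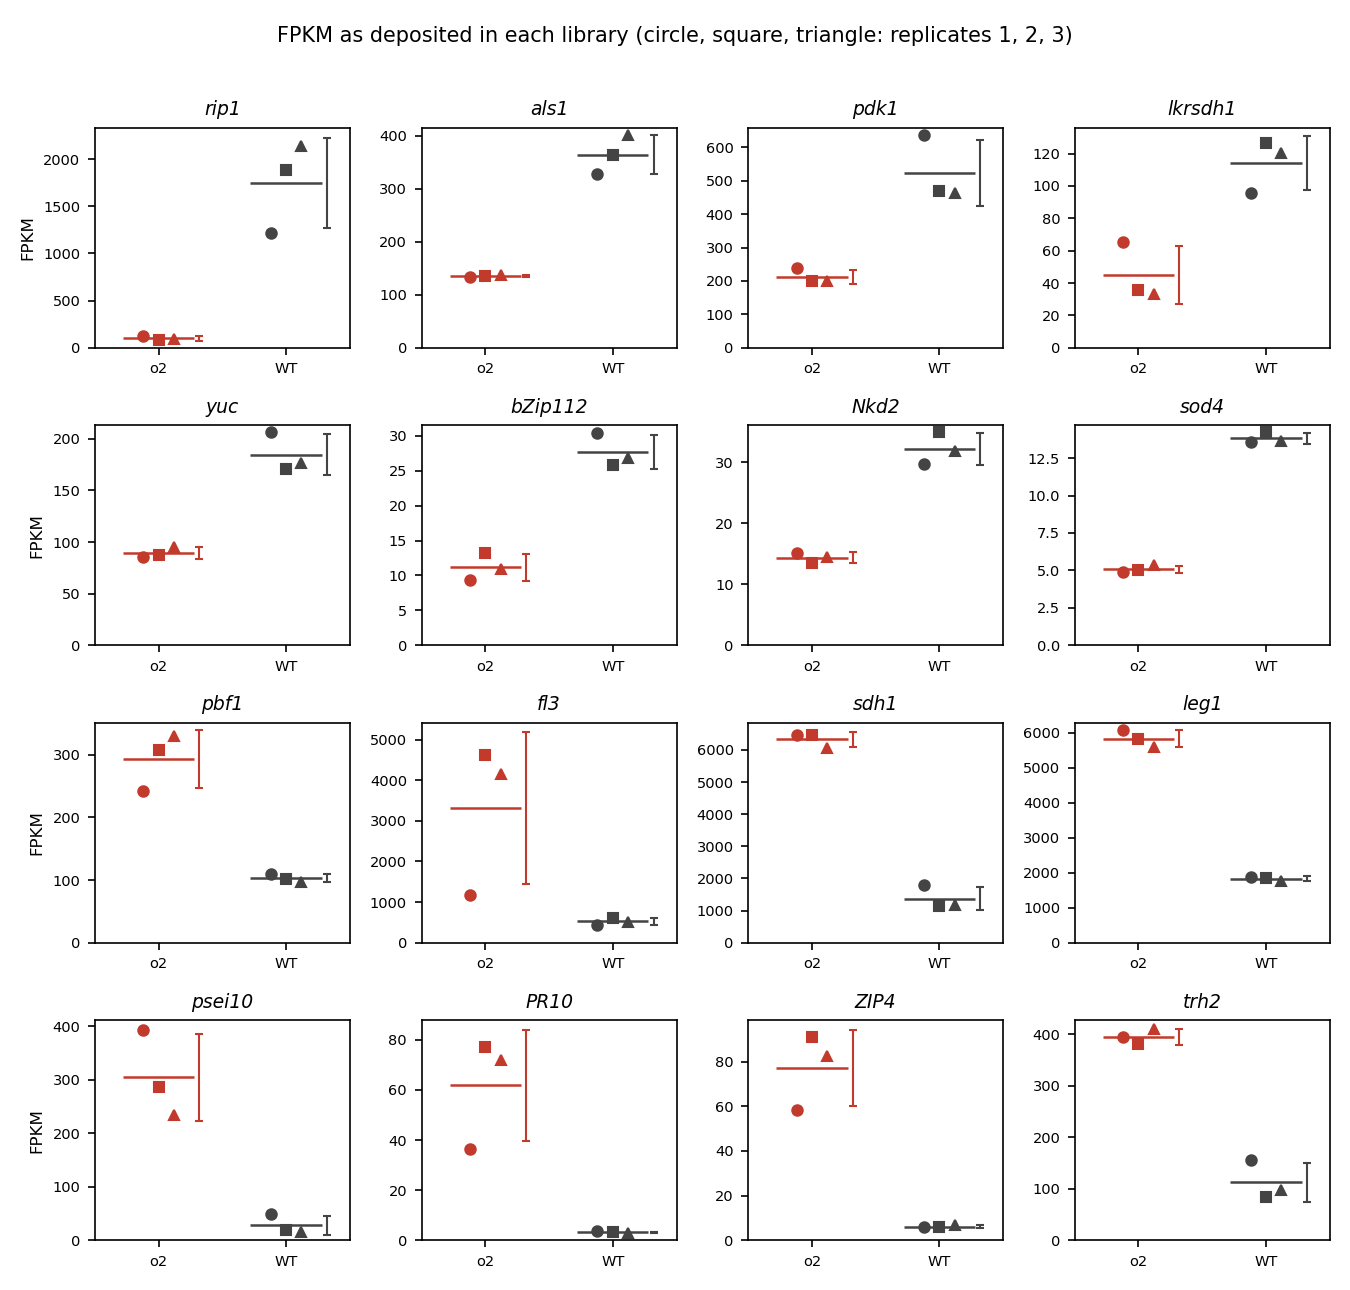
FPKM as deposited in each o2 library (left, red) and each WT library (right, grey) for 16 genes, with circle, square and triangle for replicates 1, 2 and 3, the mean as a line and the SD as a bar (n = 3). Several of the genes were chosen by a rule that asked for groups that do not overlap. In fl3 the o2 library of replicate 1 stands well below the other o2 libraries.

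Among 12 tested regulators of endosperm development and storage, 3 rose and 4 fell, the o2 transcript counted. The bZIP gene bZip112, also listed as bZIP17, stood at 9.39, 13.2 and 10.9 in o2, against 30.5, 25.8 and 26.9 in WT (scaled log2 difference −1.75 ± 0.11, adjusted p = 0.00021). Its level in o2 was below the lowest WT library in all 3 libraries. The pair of naked endosperm genes, which encode zinc-finger factors of aleurone differentiation, moved in opposite directions. Nkd2 stood at 15.1, 13.4 and 14.5 in o2, against 29.6, 34.97 and 31.9 in WT (−1.62 ± 0.13, adjusted p = 0.00049). Nkd1, the more abundant of the pair, stood at 104, 121 and 126 in o2, against 58.2, 49.96 and 49.8 in WT (0.60 ± 0.08, adjusted p = 0.0034). The groups of both genes did not overlap. The call of Nkd1 was lost in the fit of all 12 libraries (adjusted p = 0.068). The other tested aleurone markers, cr4, dek1 and Sal1, were not called on either scale (scaled log2 differences −0.32, 0.01 and −0.34). As deposited, the 7 aleurone markers summed to 170 to 190.2 in o2 and 122 to 132 in WT, with 1 of the 7 at 0 in every library. Nkd1, at 104 to 126 in o2 and 49.8 to 58.2 in WT, and Nkd2 are in these sums. On that scale the median tested gene itself stood 0.44 higher in o2 (log2), and this holds for the other marker sums below.

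The gene of the partner factor PBF, pbf1 (GRMZM2G146283), rose in o2, at 242, 307 and 331 in o2, against 110.3, 102 and 97.6 in WT (scaled log2 difference 0.95 ± 0.10, adjusted p = 0.0014). A second model with the same name, GRMZM2G146267, stood at 16.7, 20.05 and 18.5 in o2, against 12.6, 12.3 and 11.5 in WT, and was higher only as deposited (adjusted p = 0.0049, and 0.70 after scaling). The gene fl3, for a PLATZ protein of endosperm filling, stood at 1182, 4614 and 4156 in o2, against 443, 612 and 513 in WT (1.91 ± 0.46, adjusted p = 0.030). All o2 libraries exceeded all WT libraries, but replicate 1 of o2 held far less than the other o2 libraries. The bHLH gene Opaque11, a regulator of starch and storage protein genes, stood at 46.8, 44.3 and 47.1 in o2, against 51.4, 66.7 and 68.8 in WT (−0.95 ± 0.15, adjusted p = 0.0076). The call of fl3 was lost without o2 replicate 2 or 3 or WT replicate 1, 2 or 3 (adjusted p = 0.055 to 0.10). The call of Opaque11 was lost without o2 replicate 2 or 3 or WT replicate 2 or 3 (adjusted p = 0.064 to 0.10). The plot of list members shows these genes with their errors.

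**Figure D3:**
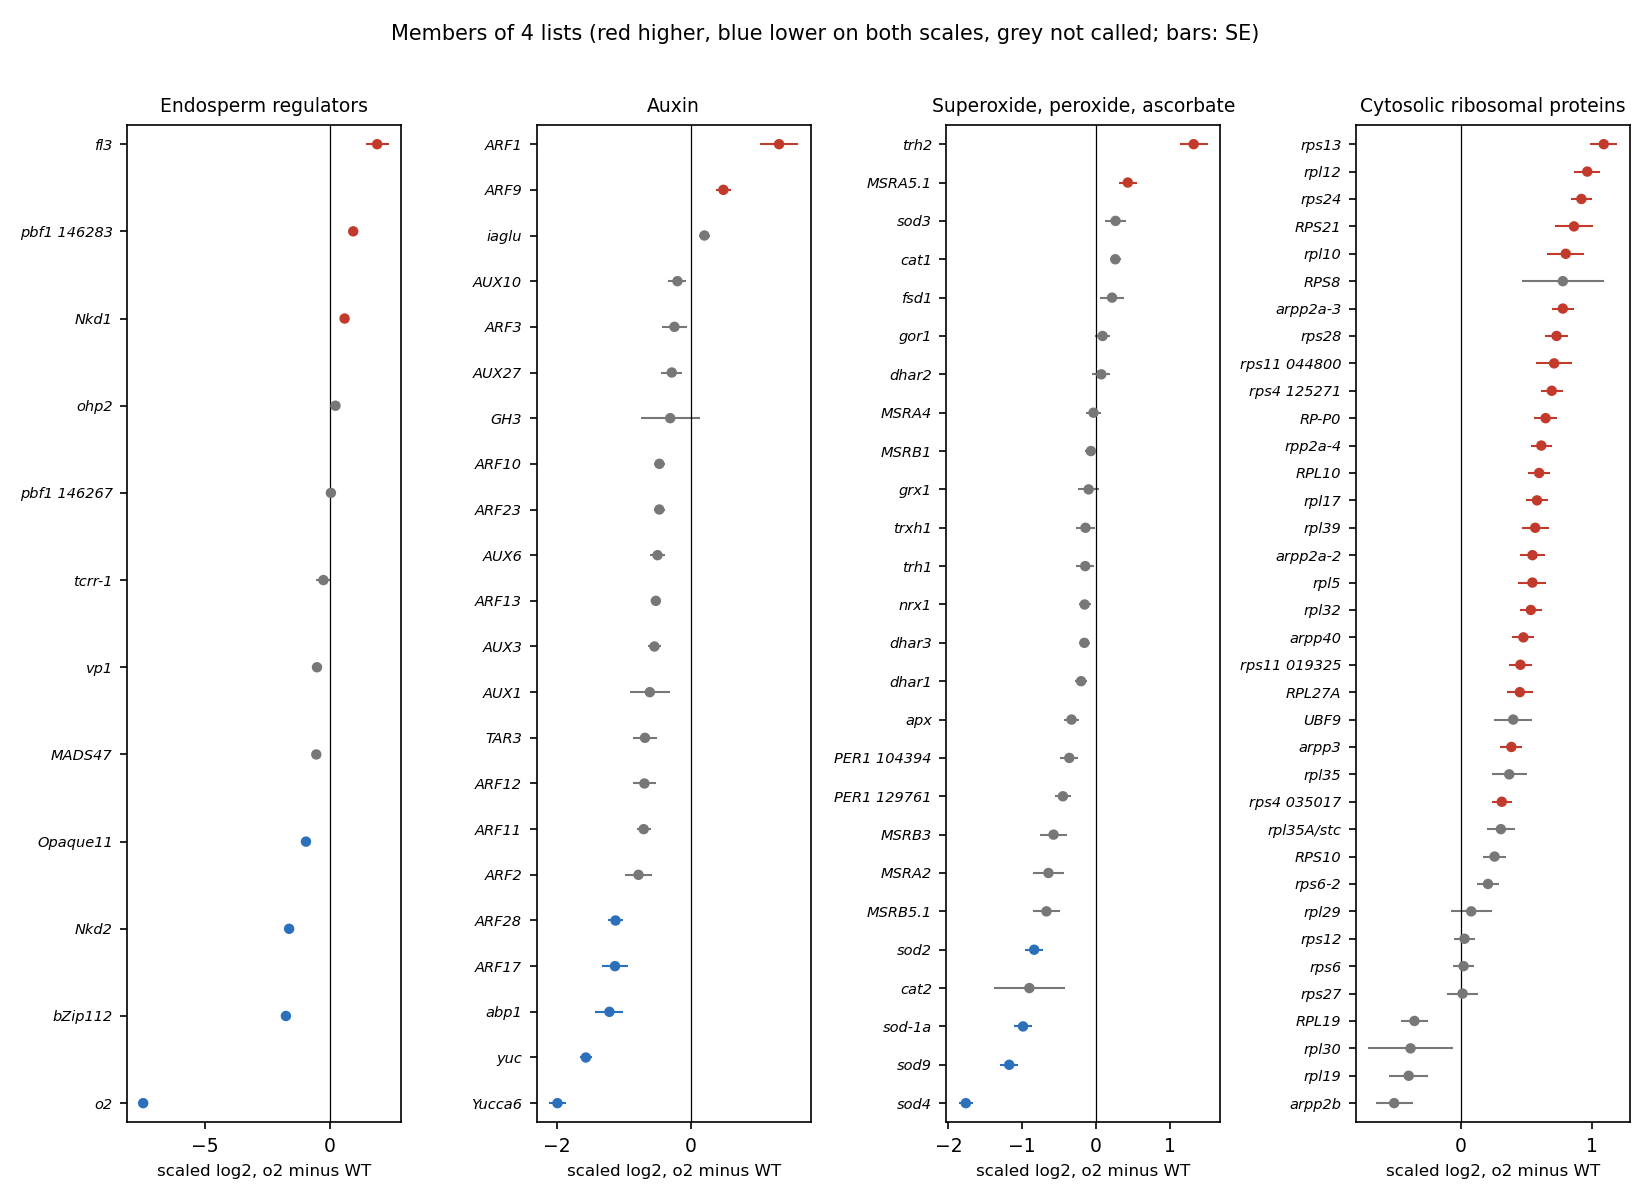
Scaled log2 difference (o2 minus WT) with SE for the tested members of 4 lists, ordered from highest to lowest. Red members rose and blue members fell on both scales, and grey members were not called. Most auxin members lie left of 0, the 3 lowest members of the superoxide list are the dismutase genes sod4, sod9 and sod-1a, and most ribosomal protein members lie right of 0.

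The shares over all tested genes, 9.14% higher and 3.15% lower, apply to every family of this paragraph. Of 26 tested bZIP genes 3 rose and 3 fell. None rose without o2 replicate 2 or 3 or WT replicate 2, and 1 without o2 replicate 1. Apart from o2 and bZip112, the G-box factor gene GBF1 fell, at 1.70, 1.45 and 1.56 in o2, against 4.84, 5.17 and 4.41 in WT (scaled log2 difference −1.56 ± 0.12). The low-temperature gene lip15, the most abundant of the 3 that rose, stood at 333, 383 and 358 in o2, against 128, 163 and 179.8 in WT (0.66 ± 0.15, adjusted p = 0.028). Of 17 AP2/ERF genes 3 rose and 1 fell, with 1 rise without o2 replicate 2 or WT replicate 2 or 3. EREB179 stood at 0.192, 0.480 and 0.410 in o2, against 2.27, 4.68 and 5.47 in WT (−2.15 ± 0.28). The gene dbf1, for a dehydration-responsive element binding factor, stood at 68.8, 114 and 107 in o2, against 29.9, 28.6 and 31.6 in WT (1.09 ± 0.15). Of 11 NAC genes 2 rose, 1 of them only with all replicate 2 and 3 libraries, and 1 fell. Of 24 MYB genes none rose and 1 fell, while 5 were lower after scaling. NAC78 stood at 1.02, 0.456 and 0.496 in o2, against 3.89, 2.03 and 1.997 in WT. NAC76 stood at 2.01, 1.92 and 2.15 in o2, against 0.0560, 0.0409 and 0.158 in WT. The groups of both did not overlap, at levels under 4 in every library. NAC76 passed the filter through its o2 libraries alone, which fixes that its groups as deposited do not overlap. None of 8 WRKY, 11 trihelix and 8 heat shock factor genes was called in limma's fits on both scales, and 1 trihelix gene rose with the replicate block. The call of lip15 was lost without o2 replicate 1, 2 or 3 or WT replicate 2 (adjusted p = 0.052 to 0.10).

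No gene rose in o2 in the 3 lists of amino acid synthesis, the aspartate family and nitrogen assimilation. Of 15 genes in the list of other amino acid synthesis only als1 fell, and with the replicate block 2 rose and 2 fell. The gene als1 encodes acetolactate synthase, the first enzyme of the branched-chain amino acids, and stood at 134, 136 and 138 in o2, against 328, 364 and 402 in WT. The o2 libraries lay within a few FPKM of each other and far below WT (scaled log2 difference −1.95 ± 0.12, adjusted p = 0.00021). The chorismate mutase genes CM1 and CM2, of the aromatic amino acids, were lower only after scaling (−0.86 and −0.65). Of 9 nitrogen assimilation genes 3 fell and none rose, against 3.15% and 9.14% of all tested genes, with 1 fall without o2 replicate 3. The glutamine synthetase gene gln4 stood at 12.2, 6.26 and 6.89 in o2, against 13.9, 16.3 and 15.9 in WT (−1.33 ± 0.26). Another, gln5, stood at 1.25, 0.324 and 0.573 in o2, against 2.38, 1.70 and 1.89 in WT (−1.105 ± 0.20). The asparagine synthetase gene asn2 stood at 0.310, 0.570 and 0.516 in o2, against 1.40, 1.68 and 1.89 in WT (−1.12 ± 0.13). All 3 were of low abundance, and gln5 and asn2 stood under 3 in every library. The abundant asparagine synthetase gene Asn1 (GRMZM2G154182) stood at 761, 1126 and 1204 in o2, against 567, 999.7 and 1006 in WT, and was not called on either scale (adjusted p = 0.56 scaled and 0.37 as deposited). Of 13 genes of the lysine and aspartate family lkrsdh1 was the only call, and with the replicate block 1 gene of the list also rose. The call of gln4 was lost without o2 replicate 2 or 3 or WT replicate 2 or 3 and in the fit of all 12 libraries (adjusted p = 0.053 to 0.14). The call of gln5 was lost without o2 replicate 3 (adjusted p = 0.053). CM1 passed on both scales without WT replicate 1 and with the replicate block (adjusted p = 0.021 to 0.026).

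Of 22 tested auxin genes 5 fell and 2 rose, against 3.15% and 9.14% of all tested genes, and 14 were lower after scaling, against 9.09%. The median scaled log2 difference of the list was −0.54, against −0.003 over all tested genes. Without o2 replicate 2 or 3 or WT replicate 2 or 3 no auxin gene rose, and 4 or 5 fell. The pair of tested genes of YUCCA monooxygenases, which make auxin from its pyruvate precursor, fell. The more abundant, named yuc, stood at 85.4, 87.2 and 95.5 in o2, against 207, 171 and 176 in WT (−1.57 ± 0.08, adjusted p = 0.00014). Yucca6 stood at 5.83, 4.88 and 5.86 in o2, against 19.1, 15.7 and 18.2 in WT (−1.995 ± 0.12, adjusted p = 0.00021). The groups of both genes lay well apart. TAR3, of the aminotransferase family of the preceding step, stood at 187, 134 and 135 in o2, against 171, 158 and 171 in WT, and was lower only after scaling (−0.69, adjusted p = 0.035). The auxin response factor gene ARF28 fell (12.8, 12.6 and 11.02 in o2, against 20.7, 18.3 and 18.6 in WT; −1.13 ± 0.11), and so did ARF17 (−1.14) and the auxin-binding protein gene abp1 (−1.22). ARF1 and ARF9 rose, at levels under 10 in every library (1.31 and 0.48). The gene iaglu, for an enzyme that conjugates auxin to glucose, stood at 127, 128 and 135 in o2, against 84.9, 74.03 and 74.6 in WT, and was higher only as deposited (adjusted p = 0.0012). The call of abp1 was lost without o2 replicate 2 or 3 (adjusted p = 0.052 to 0.058). The calls of ARF1 and ARF9 were lost without o2 replicate 2 or 3 or WT replicate 2 or 3 (adjusted p = 0.050 to 0.13). TAR3 passed on both scales without o2 replicate 1 (adjusted p = 0.012).

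Of 37 genes of abscisic acid synthesis and response 1 rose and 4 fell, against 9.14% and 3.15% of all tested genes. In this list 2 fell without a replicate 2 or replicate 3 library of either genotype. The falls included y1, for the phytoene synthase of the yellow endosperm, at 1.43, 1.64 and 1.53 in o2, against 2.80, 5.01 and 4.46 in WT (scaled log2 difference −1.36 ± 0.20). The second, vp9, for a carotene desaturase, stood at 3.33, 2.34 and 2.59 in o2, against 4.47, 3.68 and 3.62 in WT (−0.80 ± 0.15). Both are carotenoid genes and both stood under 6 in every library. The kinase genes SnRK2.5 and SnRK2.2 also fell (−1.09 and −1.001). Of 18 cytokinin genes none rose and 2 fell, of which 1 was lost without any single library other than WT replicate 1, and the other was the response regulator gene RR9 (0.644, 0.743 and 0.637 in o2, against 1.32, 1.82 and 1.68 in WT; −0.91 ± 0.13). Of 23 jasmonate and lipoxygenase genes 2 rose and 1 fell. With the replicate block 4 rose in this list, as they did without replicate 1 of either genotype, and 3 in that of abscisic acid. TIFY4, of the family of jasmonate repressors, rose, at 10.2, 11.9 and 12.3 in o2, against 3.95, 3.61 and 3.40 in WT (0.96 ± 0.09). The oxophytodienoate reductase gene opr1 rose, at 2.07, 3.51 and 3.44 in o2, against 0.805, 0.263 and 0.215 in WT (1.22 ± 0.20). The call of vp9 was lost without o2 replicate 2 or 3 or WT replicate 1, 2 or 3 and without the filter on low values (adjusted p = 0.074 to 0.16). The call of SnRK2.5 was lost without o2 replicate 1 or 2 or WT replicate 2 or 3, in the fit of all 12 libraries and without the filter on low values (adjusted p = 0.056 to 0.27). The call of SnRK2.2 was lost without o2 replicate 3 (adjusted p = 0.059).

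Superoxide dismutases convert superoxide into peroxide, which catalases remove. Of 26 tested genes of superoxide, peroxide and ascorbate turnover 2 rose, 1 of them only with all replicate 2 and 3 libraries, and 4 fell. All 4 that fell were superoxide dismutase genes. Without WT replicate 2, 2 fell. sod4 stood at 4.86, 4.99 and 5.34 in o2, against 13.6, 14.2 and 13.6 in WT (scaled log2 difference −1.76 ± 0.09, adjusted p = 0.00014). sod9 stood at 5.07, 6.32 and 5.88 in o2, against 8.80, 10.5 and 10.7 in WT (−1.18 ± 0.13). sod-1a stood at 32.04, 32.7 and 33.6 in o2, against 40.8, 51.3 and 45.3 in WT (−0.99 ± 0.12). The fourth, sod2, stood at 7.64, 7.05 and 6.37 in o2, against 8.79, 9.52 and 9.53 in WT (−0.84 ± 0.13). The manganese form sod3, more abundant than these, stood at 92.7, 139 and 138 in o2, against 64.5, 69.3 and 74.5 in WT, and was higher only as deposited (adjusted p = 0.0053, and 0.24 after scaling). Catalase genes were not called on both scales, cat1 with a scaled log2 difference of 0.26 and cat2 of −0.90. The thioredoxin h gene trh2, of the same list, rose, at 395, 380.1 and 411 in o2, against 155, 83.7 and 97.6 in WT (1.32 ± 0.19, adjusted p = 0.0049). The other thioredoxin h genes trh1 and trxh1 did not (−0.15 and −0.14). Of 20 genes of oil bodies and fatty acids none rose and 2 fell, and 6 were lower after scaling. There was 1 fall with the replicate block, none without o2 replicate 2 or WT replicate 3, and 1 without o2 replicate 3 or WT replicate 2. The oil body gene OBAP1A stood at 35.7, 35.9 and 40.4 in o2, against 46.5, 49.5 and 55.7 in WT (−0.95 ± 0.12). The call of sod-1a was lost without WT replicate 2 and in the fit of all 12 libraries (adjusted p = 0.054 to 0.063). The call of sod2 was lost without o2 replicate 2 or 3 or WT replicate 2 or 3 (adjusted p = 0.085 to 0.13). The call of OBAP1A was lost without o2 replicate 2 or WT replicate 3 (adjusted p = 0.059 to 0.065). sod3 passed on both scales without o2 replicate 1 and with the replicate block (adjusted p = 0.045 to 0.049). cat1 and cat2 passed on both scales with the replicate block (adjusted p = 0.014 to 0.048).

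Of 36 tested cytosolic ribosomal protein genes 22 rose and none fell, against 9.14% and 3.15% of all tested genes, and the median scaled log2 difference was 0.51, against −0.003 over all tested genes. Leaving out 1 library gave 16 to 23 rises and no fall. Without both replicate 1 libraries 26 rose and none fell. The stalk protein gene RP-P0, the most abundant of the list, stood at 412, 456 and 454 in o2, against 189, 189 and 201 in WT (0.65 ± 0.09, adjusted p = 0.0037). Another stalk protein gene, rpp2a-4, stood at 245, 259 and 286 in o2, against 126, 112 and 116 in WT (0.61 ± 0.08). The largest rise of the list was that of rps13, at 36.01, 46.9 and 50.4 in o2, against 14.2, 13.7 and 13.4 in WT (1.09 ± 0.10, adjusted p = 0.0011). At the other end arpp2b stood at 5.39, 4.52 and 4.73 in o2, against 6.16, 4.32 and 5.01 in WT, lower after scaling only (−0.51, adjusted p = 0.047). Of 14 translation factor genes 5 rose and none fell, with 2 rises without o2 replicate 2 or 3 or WT replicate 2 and 3 without WT replicate 3. The elongation factor gene elfa3 stood at 253, 285 and 286 in o2, against 104, 111 and 99.4 in WT (0.84 ± 0.08). Another, elfa7, stood at 168, 186 and 193 in o2, against 78.5, 70.96 and 76.2 in WT (0.73 ± 0.07). EF1-A, the most abundant of the list, stood at 667, 826 and 839 in o2, against 357, 368 and 386 in WT (0.52 ± 0.10). The initiation factor genes eIF-4A and tif-4A3 were higher only as deposited, with scaled log2 differences close to 0 (−0.08 and −0.01). Of 23 replication and cell cycle genes 2 rose, and of 27 histone and chromatin assembly genes 2 rose, with no falls in either. With the replicate block 6 rose in each, and without a replicate 2 or replicate 3 library of either genotype none did. Without o2 replicate 1, 7 replication genes rose, and without WT replicate 1, 5. The call of EF1-A was lost without o2 replicate 2 or 3 or WT replicate 2 (adjusted p = 0.066 to 0.076).

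Of 27 genes of folding and quality control in the endoplasmic reticulum, where zeins are assembled, 6 rose and none fell. Over all tested genes the shares were 9.14% and 3.15%. In the list 2 genes were lower after scaling. None rose without WT replicate 2, 2 without o2 replicate 2 or 3, and 3 without WT replicate 3. Of the 6, 5 encode protein disulfide isomerases of the PDIL family, which form the disulfide bonds of secreted proteins. Most tested genes of the list are PDIL genes, and most of these did not rise. The most abundant of the 6, PDIL1-1, stood at 755, 883 and 926 in o2, against 478, 339 and 340.1 in WT (scaled log2 difference 0.62 ± 0.13, adjusted p = 0.017). PDIL2-1 stood at 15.5, 17.1 and 21.4 in o2, against 8.64, 6.08 and 6.31 in WT (0.76 ± 0.14). The chaperone gene bip1 stood at 200.2, 136 and 133 in o2, against 115, 82.8 and 80.6 in WT, and was higher only as deposited (adjusted p = 0.014, and 0.55 after scaling). Of 15 genes of protein body assembly and secretion 1 rose and none fell, and 1 was lower after scaling. The call of PDIL1-1 was lost without o2 replicate 2 or 3 or WT replicate 2 or 3 (adjusted p = 0.071 to 0.079). The call of PDIL2-1 was lost without WT replicate 2 or 3 (adjusted p = 0.050 to 0.053).

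Several abundant transcripts of carbon metabolism changed. Of 13 genes of carbon entry, malate and sorbitol metabolism 5 rose and 1, pdk1, fell, and 2 fell with the replicate block. Without WT replicate 2, 2 rose, and without WT replicate 3 or o2 replicate 2, 3 rose. Sorbitol dehydrogenase, which converts sorbitol and fructose into each other, is encoded by sdh1, which stood at 6474, 6469 and 6061 in o2, against 1787, 1157 and 1159 in WT. As deposited, each o2 library held over 3 times the level of each WT library. On that scale the median tested gene itself stood 0.44 higher in o2 (log2). The scaled log2 difference of sdh1 was 1.70 ± 0.17 (limma adjusted p = 0.0014). The phosphoenolpyruvate carboxykinase gene pck2 stood at 165, 184 and 180.4 in o2, against 68.97, 69.1 and 73.3 in WT (0.78 ± 0.08). The malate dehydrogenase gene mdh4 stood at 90.96, 85.7 and 77.1 in o2, against 42.5, 34.3 and 34.7 in WT (0.64 ± 0.12). Both rose. The second pyruvate phosphate dikinase gene, PPDK2, stood at 1025, 1539.6 and 1518 in o2, against 1313, 1352 and 1300.4 in WT, not called as deposited (adjusted p = 0.94) and lower after scaling (−0.52, adjusted p = 0.045). Of the glyoxylate cycle genes, mas1, for malate synthase, fell. It stood at 27.7, 13.1 and 13.02 in o2, against 37.5, 27.9 and 28.04 in WT (−1.35 ± 0.31, adjusted p = 0.025). The other, icl1, for isocitrate lyase, stood at 19.9, 14.6 and 14.6 in o2, against 22.2, 16.7 and 17.3 in WT, lower only after scaling (−0.70). The call of mdh4 was lost without WT replicate 2 or 3 and in the fit of all 12 libraries (adjusted p = 0.053 to 0.063). The call of mas1 was lost without o2 replicate 2 or 3 or WT replicate 1, 2 or 3 and without the filter on low values (adjusted p = 0.060 to 0.11).

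Of 23 glycolysis and fermentation genes 3 rose and none fell, against 9.14% and 3.15% of all tested genes, and 2 were lower after scaling. With the replicate block 5 rose and 1 fell. None rose without a replicate 2 or replicate 3 library of either genotype, and 8 did without WT replicate 1. The 3 that rose were the cytosolic glyceraldehyde phosphate dehydrogenase genes gpc4 and gpc3 and the enolase gene eno1. gpc4 stood at 1131, 1128 and 1106 in o2, against 528, 183 and 182 in WT (scaled log2 difference 1.57 ± 0.36). gpc3 stood at 952, 1007 and 979.9 in o2, against 492, 162 and 160.4 in WT (1.52 ± 0.38). WT replicate 1 was the highest of its group in both, and WT replicates 2 and 3 were close to each other. eno1 stood at 295, 549 and 541 in o2, against 175, 108 and 106 in WT (1.27 ± 0.24). The related genes gpc2 and eno2 were higher only as deposited, with scaled log2 differences of −0.07 and 0.28. The call of gpc4 was lost without o2 replicate 1, 2 or 3 or WT replicate 2 or 3 (adjusted p = 0.059 to 0.093). The call of gpc3 was lost without o2 replicate 1, 2 or 3 or WT replicate 2 or 3 and without the filter on low values (adjusted p = 0.052 to 0.11). The call of eno1 was lost without o2 replicate 2 or 3 or WT replicate 2 or 3 (adjusted p = 0.056 to 0.059). eno2 passed on both scales without o2 replicate 1 or WT replicate 1 (adjusted p = 0.036 to 0.039).

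Of 14 genes of starch synthases, branching and debranching enzymes 1 rose and none fell, and with the replicate block 2 rose. The 1 that rose was ae1, for a starch branching enzyme, at 1016, 1899 and 1877 in o2, against 516, 646 and 642 in WT (scaled log2 difference 0.82 ± 0.23, adjusted p = 0.048). Of 11 genes of ADP-glucose supply and sucrose cleavage none was called on both scales in limma's fits. After scaling 2 were lower, against 9.09% of all tested genes, and the median scaled log2 difference was −0.22. As deposited 5 were higher, against 53.5% of all tested genes. With the replicate block 3 of the 11 rose and 1 fell. The ADP-glucose pyrophosphorylase gene sh2 stood at 2243, 4014 and 4229 in o2, against 1267, 1738 and 1620.4 in WT, higher as deposited (adjusted p = 0.0072) and not called after scaling (0.13). The gene of the other subunit, bt2, stood at 1179, 2717 and 2596 in o2, against 643, 894 and 872 in WT, with adjusted p = 0.0095 as deposited and 0.11 after scaling. In both genes o2 replicate 1 was the lowest of its group and above every WT library. The call of ae1 was lost without o2 replicate 2 or 3 or WT replicate 1, 2 or 3, with only genes of mean FPKM of at least 5, without the filter on low values and with upper-quartile scaling (adjusted p = 0.058 to 0.16). sh2 and bt2 passed on both scales without o2 replicate 1 and with the replicate block (adjusted p = 0.0078 to 0.027).

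Of 3 tested reserve protein genes other than zeins 2 rose. The legumin gene leg1 stood at 6067, 5802 and 5581 in o2, against 1889, 1843 and 1751 in WT, with every o2 library above every WT library (scaled log2 difference 1.13 ± 0.13, adjusted p = 0.0020). The globulin gene glb1, a storage protein known from the embryo, stood at 35.3, 58.7 and 60.7 in o2, against 5.89, 13.95 and 13.2 in WT (1.66 ± 0.34, adjusted p = 0.018). The third, glb3, stood at 1298, 1121 and 1089 in o2, against 815, 638 and 548 in WT, and was not called after scaling (adjusted p = 0.26). Of 5 tested embryo markers glb1 and 1 other rose, while the oil body gene ole1 was lower after scaling (−0.59). The 8 embryo markers summed, as deposited, to 573 to 706 in o2 and 546 to 602 in WT, with 2 of them at 0 in every library. The call of glb1 was lost without o2 replicate 2 or 3 and in the fit of all 12 libraries (adjusted p = 0.070 to 0.086).

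The largest rises among named genes outside the zeins were those of BURP9 and BURP6. BURP9 stood at 25.3, 57.7 and 51.7 in o2, against 0.220, 0.0960 and 0.0429 in WT. BURP6 stood at 226, 93.98 and 88.8 in o2, against 3.44, 2.95 and 3.19 in WT. Both encode proteins with a BURP domain, and WT levels of BURP9 were close to 0 (scaled log2 differences 4.99 ± 0.25 and 4.42 ± 0.37; adjusted p = 0.00012 and 0.00072). The third tested gene of the list, BURP7, was not called on both scales (−0.64). The pathogenesis-related gene PR10 stood at 36.5, 77.1 and 71.8 in o2, against 3.47, 3.09 and 2.80 in WT (3.39 ± 0.23, adjusted p = 0.00029). The cystatin gene psei10, for an inhibitor of cysteine proteinases, stood at 392, 285 and 234 in o2, against 48.1, 19.2 and 15.3 in WT (3.03 ± 0.40, adjusted p = 0.0035). It was the only call among 9 cystatin genes, 4 of which rose with the replicate block. The chitinase gene chiB rose, at 193, 249 and 242 in o2, against 106, 86.2 and 87.7 in WT (0.74 ± 0.09). NRH3 rose, at 85.2, 107 and 107 in o2, against 39.8, 40.1 and 44.7 in WT (0.70 ± 0.10). They and PR10 were among 4 rises in 23 other defence genes, and rip1 was 1 of 2 falls. The glutathione transferase gene gst11 stood at 3.09, 4.30 and 5.82 in o2 and was listed at 0 in all WT libraries.

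The metal transporter gene ZIP4, of a family that carries zinc and iron, stood at 58.2, 91.1 and 82.4 in o2, against 5.70, 5.75 and 6.68 in WT. All o2 libraries were above 50 and all WT libraries under 8 (scaled log2 difference 2.95 ± 0.15, adjusted p = 0.00011). It was the only call among 8 genes of metal transport and storage. RAB15, of the late embryogenesis list, stood at 1665, 1368 and 1326 in o2, against 461, 301 and 353 in WT (1.44 ± 0.18). None of the other 5 tested members of that list was called on both scales. The glycine-rich protein gene grp1 stood at 4322, 3893 and 3635 in o2, against 1371, 849 and 1024 in WT (1.35 ± 0.18). ZCN11, of the family of FT-like proteins, stood at 76.999, 112 and 107 in o2, against 23.05, 24.9 and 25.2 in WT (1.42 ± 0.12). The 2 small heat shock protein genes named here were high in replicate 1 of both genotypes. hsp18c stood at 289, 103 and 90.99 in o2, against 38.1, 0.977 and 0.872 in WT (4.31 ± 1.17, adjusted p = 0.044). hsp18f stood at 622, 145 and 132 in o2, against 195, 11.1 and 11.8 in WT, which did not pass (adjusted p = 0.19). The 18 heat shock protein genes summed, as deposited, to 2416, 1365 and 1380.2 in o2 and to 1560 (replicate 1), 633 and 655 in WT. Of 17 tested 2 rose, 8 rose with the replicate block, 9 without WT replicate 1 and 12 without both replicate 1 libraries, and none without a replicate 2 or replicate 3 library of either genotype. None fell, but 1 did with the replicate block and 1 without both replicate 1 libraries. The part of this difference between replicates in other results was not tested. The call of hsp18c was lost without o2 replicate 1, 2 or 3 or WT replicate 2 or 3, in the fit of all 12 libraries and without the filter on low values (adjusted p = 0.069 to 0.14). hsp18f passed on both scales without WT replicate 1 and with the replicate block (adjusted p = 0.0075 to 0.014). The scaled log2 difference of hsp18c was 5.78 without WT replicate 1, 3.61 without WT replicate 2 and 3.57 without WT replicate 3.

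Among other named genes that fell, scl1, of the scarecrow-like family, stood at 56.2, 57.5 and 59.02 in o2, against 189, 223 and 234 in WT (scaled log2 difference −2.41 ± 0.12). The model named calmodulin stood at 1.91, 2.82 and 2.38 in o2, against 13.1, 10.7 and 9.54 in WT (−2.28 ± 0.13). The gene vdac2, for a mitochondrial porin, stood at 7.91, 8.06 and 8.19 in o2, against 15.3, 14.2 and 14.4 in WT (−1.28 ± 0.08).

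Some of the most changed abundant models have no name in the reference. GRMZM2G012928 stood at 473, 152 and 136 in o2, against 1156, 3156 and 3152 in WT (scaled log2 difference −3.93 ± 0.61). GRMZM2G052266 stood at 41.9, 13.4 and 13.7 in o2, against 183, 207 and 215 in WT (−3.80 ± 0.43). Both fell, and o2 replicate 1 was the highest of the o2 libraries in both. The scaled difference of GRMZM2G012928 was −4.55 without o2 replicate 1. The call of GRMZM2G012928 was lost in the fit of all 12 libraries (adjusted p = 0.058). GRMZM2G179063 stood at 89.9, 259 and 253 in o2, against 0.0999, 0.241 and 0.279 in WT (6.92 ± 0.35). GRMZM2G318882 stood at 94.5, 205 and 202 in o2, against 3.09, 0.525 and 0.450 in WT (5.86 ± 0.45). Both rose, and o2 replicate 1 was the lowest of the o2 libraries in both. Of the 5 most abundant models outside the zein list that fell, all without a name, AF546188.1_FG005 stood at 17272, 8120.1 and 8107 in o2, against 29144, 33117 and 26444 in WT. AF546188.1_FG007 stood at 24688, 12498 and 11976 in o2, against 29491, 35649 and 28877 in WT. AF546187.1_FG007 stood at 4699, 1218 and 1402 in o2, against 5926, 14409 and 12044 in WT. In AF546187.1_FG001, at 6442, 2160.2 and 1917 in o2, against 5775, 11836 and 10218 in WT, o2 replicate 1 was above WT replicate 1 and the groups overlapped (scaled log2 difference −2.11 ± 0.54, adjusted p = 0.036). GRMZM2G012806 stood at 916, 225 and 236 in o2, against 2120.1, 2585 and 2426 in WT (−3.23 ± 0.55). In all 5 of these models o2 replicate 1 was again the highest of its group. For the last 3 the scaled differences without it were −3.54 in AF546187.1_FG007, against −2.87 with it, −2.71 in AF546187.1_FG001 and −3.94 in GRMZM2G012806. These 5 models lie outside the zein list because they have no name in the sources used here. Whether they encode zeins was not tested. If they do, the 480 falls outside the list include zeins, and the zein shares given above are too low. GRMZM2G380656, chosen after its values were seen, stood at 2931, 2675 and 2227 in o2, against 235, 197 and 212 in WT (3.05 ± 0.15). The call of AF546188.1_FG007 was lost without o2 replicate 2 or 3 or WT replicate 2 or 3 (adjusted p = 0.073 to 0.098). The call of AF546187.1_FG007 was lost without o2 replicate 2 or 3 or WT replicate 2 or 3 and in the fit of all 12 libraries (adjusted p = 0.065 to 0.075). The call of AF546187.1_FG001 was lost without o2 replicate 2 or 3 or WT replicate 2 or 3, in the fit of all 12 libraries, without the filter on low values and with the replicate block (adjusted p = 0.058 to 0.13).

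Basal transfer layer genes, which mark the cells that take up sugar at the base of the endosperm, had 1 rise and no fall among 15 tested genes. It was meg2 (GRMZM2G094054), at 33.6, 51.5 and 55.7 in o2, against 12.7, 19.3 and 16.8 in WT (scaled log2 difference 0.94 ± 0.21, adjusted p = 0.024). With the replicate block 6 rose, and 7 without both replicate 1 libraries. The 16 markers summed, as deposited, to 795 to 1215 in o2 and 473 to 683 in WT, with none at 0 in every library. The part of the marker levels given here and above in the other differences was not tested. Of 10 tested water channel genes 2 rose and 1 fell, with 1 rise without o2 replicate 2 or 3 or WT replicate 2. With the replicate block 4 water channel genes rose. Of 27 cell wall genes 3 rose, against 9.14% of all tested genes. None of the 3 did without o2 replicate 3 or WT replicate 2, and 1 did without o2 replicate 2 or WT replicate 3. Of 27 genes of DNA methylation and silencing none rose and 1 fell, mbd106, for a methyl-CpG-binding domain protein. It stood at 15.2, 14.5 and 14.1 in o2, against 18.7, 21.5 and 22.3 in WT (−0.99 ± 0.13). Other lists with no call on both scales were autophagy (12 tested), potassium transporters (11) and transporters of sugars and amino acids (11), of which 2 sugar or amino acid and 1 potassium transporter genes rose with the replicate block. The plot of lists sets these shares beside those of all tested genes. The call of meg2 was lost without o2 replicate 2 or 3 or WT replicate 3 and in the fit of all 12 libraries (adjusted p = 0.066 to 0.17).

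**Figure D4:**
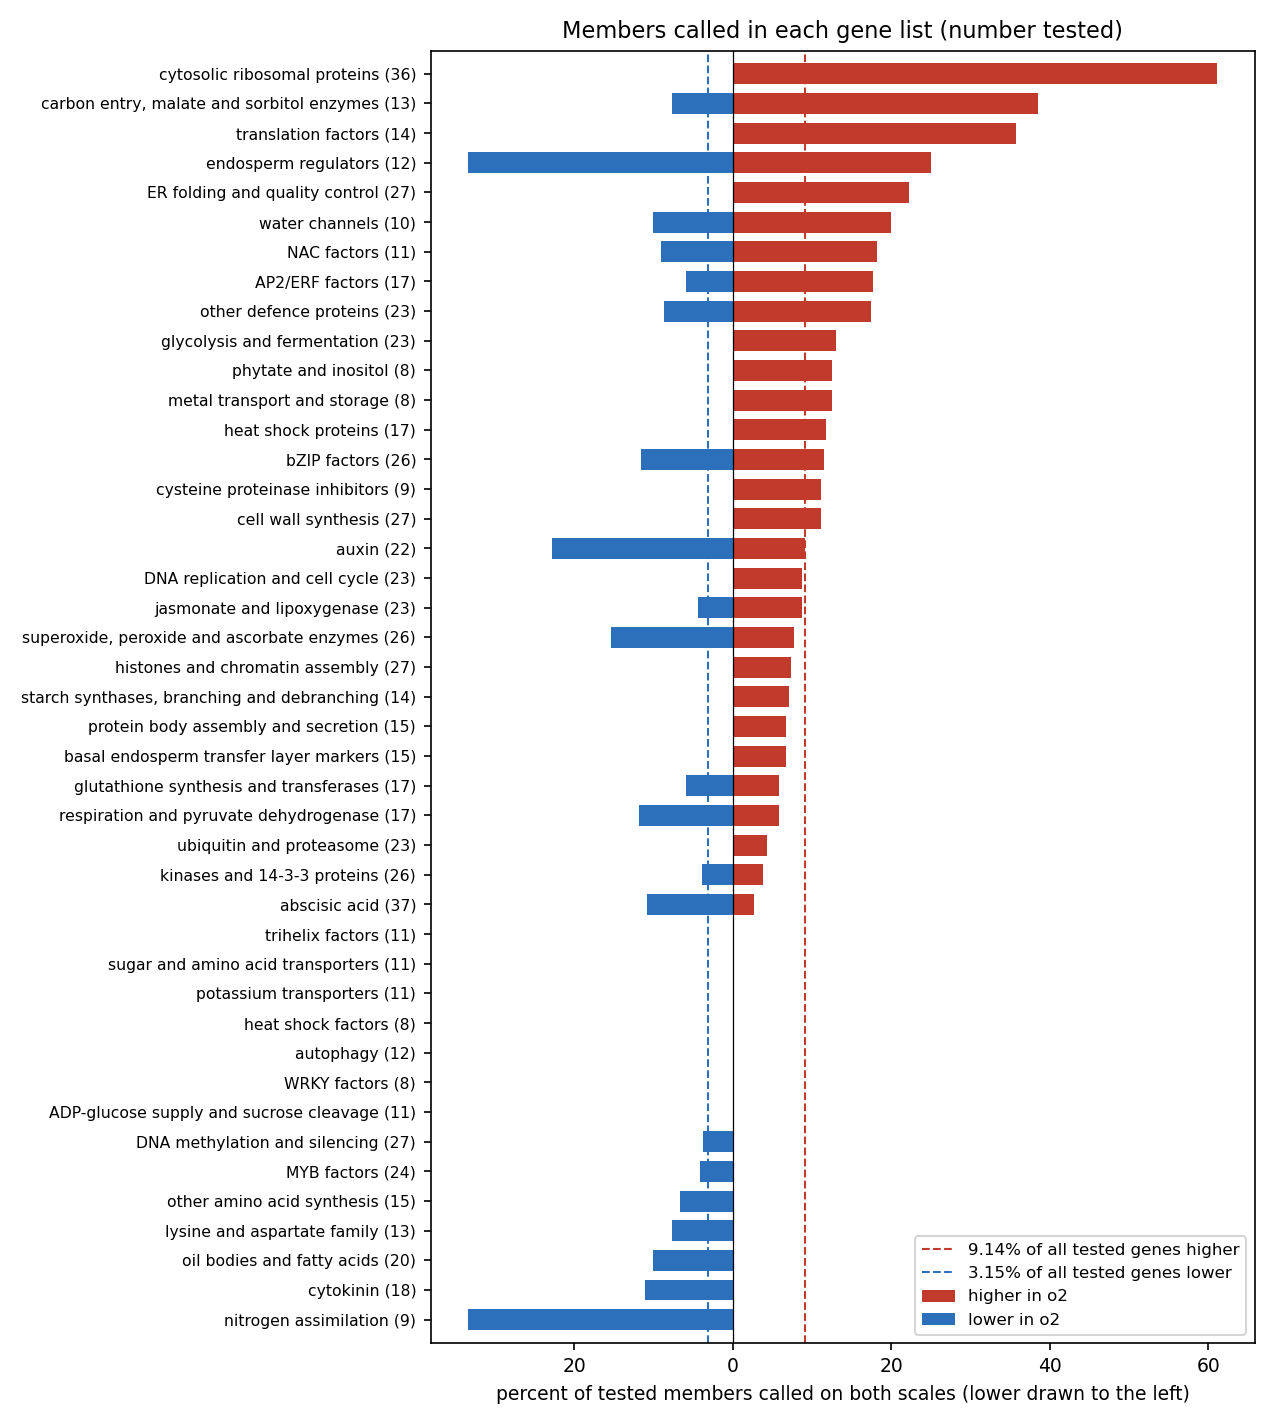
Percent of tested members of each gene list that were higher (red, right) or lower (blue, left) in o2 on both scales, for lists with at least 8 tested members (number tested in brackets). Dashed lines mark the shares over all tested genes, 9.14% higher and 3.15% lower. Ribosomal proteins have the longest bar to the right, with 22 of 36. Nitrogen assimilation and endosperm regulators have the longest to the left, with 3 of 9 and 4 of 12. The 4 include the o2 transcript, the gene that defines the mutant.

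The neighbours of o2 in the reference gene order were compared with other genes by counts, with no test. Of the 100 nearest tested neighbours with a place in that order, 50 on each side, 19 rose and 12 fell, or 31%, against 12.1% of the 11122 other placed genes. With 10 neighbours on each side 8 of 20 were called (40%), with 25 on each side 17 of 50 (34%). The median size of the scaled log2 difference was 0.42 among the 100 neighbours and 0.22 among the others. The neighbours include BURP6, trh2, meg2 and gst6, for a glutathione transferase, which fell (−0.88), so these genes are counted both here and in their lists. GRMZM2G404688, chosen after its values were seen and without a name in the reference, is also a neighbour. It stood at 578, 468 and 397 in o2, against 0.230, 0 and 0.220 in WT, the largest scaled difference outside the zeins (8.40 ± 0.19, adjusted p = 1.5e-06). The call of gst6 was lost without o2 replicate 2 or WT replicate 2 or 3 (adjusted p = 0.067 to 0.081). The labels name no inbred background, and the part of a difference in the chromosome segment around o2 between the lines was not tested. The order is that of another assembly than the files use, and it was used for neighbour order only.

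**Figure D5:**
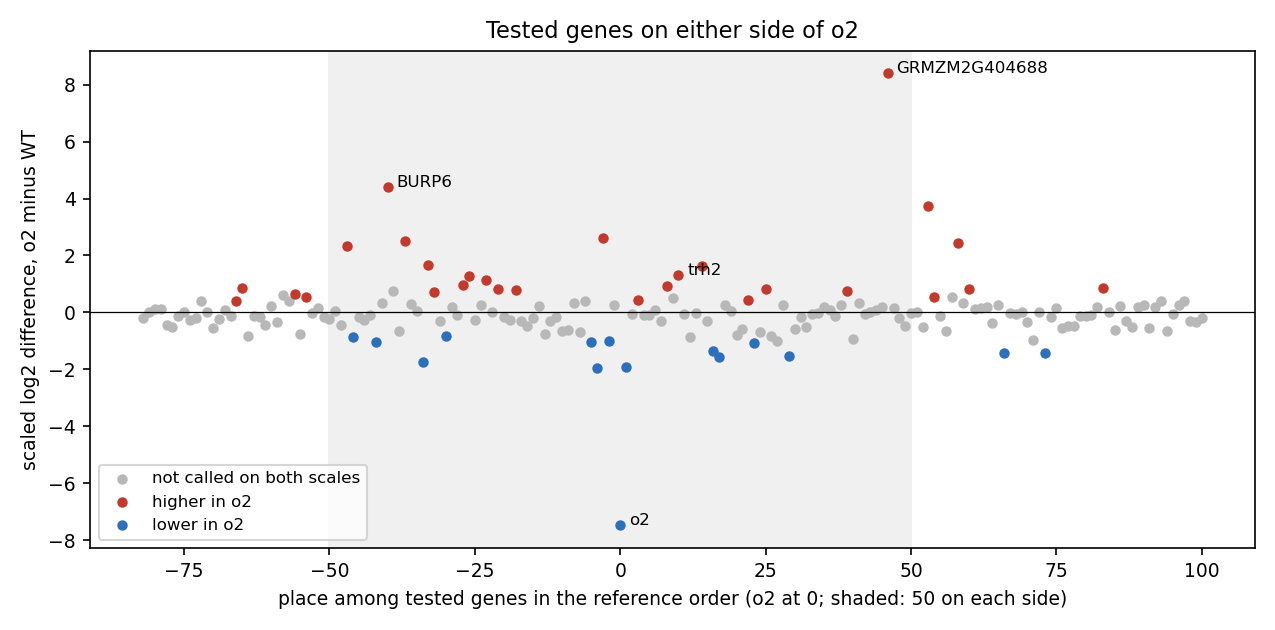
Scaled log2 difference (o2 minus WT) of tested genes by their place in the reference gene order, counted from o2 at 0, up to 100 genes on a side. Red genes rose, blue genes fell on both scales, grey genes were not called, and the shaded band holds the 100 nearest neighbours. Red and blue points crowd in the band, where 31 of 100 genes were called, and GRMZM2G404688 is the highest point.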

How the data were processed

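RNA of maize endosperm at 16 days after pollination had been depleted of ribosomal RNA and sequenced as paired reads on a HiSeq instrument, per the labels' protocols. The authors deposited 1 FPKM value per gene model and library. FastQC, TopHat, Bowtie2 and Cufflinks and the build B73 RefGen_v3 are named in the submitters' processing notes, with versions, parameters and annotation not given in the sources used here. FPKM are not counts, so no count model was used.

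Models that reached an FPKM of 1 in 3 or more of the 6 libraries were tested on log2(FPKM + 1), after division by median-of-ratios size factors and as deposited, with limma 3.58.1 (R 4.3.3, trended and robust empirical Bayes) and Benjamini-Hochberg adjustment over all 15694 tested models. The scaled fit is the main one. A fold change on this scale understates that of genes with low values. A call needs an adjusted p under 0.05 in both fits and the same sign. Some genes with printed values reached 1 in every library of 1 genotype and in none of the other. The filter alone then keeps their groups as deposited from overlapping. Through o2 these were NAC76, opr1, BURP9, gst11, GRMZM2G179063 and GRMZM2G404688. Through WT they were the o2 transcript, EREB179, asn2 and RR9. P-values measure the spread between 3 libraries per genotype. Only the scaled fit without a block was run on simulated data, with independent noise in each gene and library. Those data lack the deviation that same-numbered libraries share here, so they cannot show how calls behave under it. The fit as deposited and the rule of both scales were not run on them. Tables were handled in Python 3.11.15 with pandas 2.3.3.

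Gene names are symbols and synonyms of the RefSeq table for Zm-B73-REFERENCE-NAM-5.0, another build than that of the files, used for names and gene order only. It matched 18905 of 39448 models and gave a name to 1614 tested ones, and 334 tested models match several of its genes. It holds no descriptions, so the 53 gene lists outside the zeins, with 779 distinct tested genes, rest on names alone, and the plan to use descriptions was dropped. Members, lists and tests were chosen with earlier results of these data known. Models listed at 0 in 1 library and at 20 or more in another number 12, and such a 0 can be a failed estimate.

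The genes named were o2 and pbf1, the 15 largest rises and falls among named genes that were called, had mean FPKM of at least 10 in a genotype, did not overlap and had no library at 0, the 5 most abundant called genes each way, up to 4 called members each way and 3 uncalled ones of each list, all known O2 targets, and unnamed models, up to 2 each way. Some of these were left out for space. CM1, CM2, icl1, trh1, trxh1, cat2, eIF-4A, PDIL2-1, ARF17, rps13, arpp2b and the unnamed models GRMZM2G380656 and GRMZM2G404688 fall outside this rule and were chosen after their values were seen.

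Same-numbered libraries of o2 and WT deviated together from their group means (r = 0.45, 0.30 and 0.30 across genes for numbers 1, 2 and 3). By the rule of a correlation above 0.1 in every pair this was taken as pairing. Replicates 2 and 3 also correlated crosswise (0.26 and 0.35). These values therefore cannot tell pairing by number from a split of replicate 1 against replicates 2 and 3. The main fit has no block, so its SEs and p-values ignore any pairing. The alternatives tried were the replicate block, other scalings, pseudocount and filters, a fit of all 12 libraries, and leaving out libraries.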

Additional observations from a re-analysis of the deposited data

How the results depend on the processing

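Over all tested genes the main scaled counts were 1435 higher and 1427 lower. With the replicate block 2173 were higher on the scaled values and on both scales, and 2114 lower on the scaled values. Of the calls on both scales, 1426 of 1435 rises and 484 of 495 falls were shared with this fit. Without both replicate 1 libraries 4095 were higher and 4110 lower on the scaled values, with 1003 lower as deposited and on both scales. Unscaled FPKM gave 8394 higher and 497 lower. With a mean FPKM of at least 5, 249 were lower as deposited and on both scales. Leaving out each library in turn gave 558 to 2233 higher on the scaled values and on both scales, 584 to 2302 lower on the scaled values, 317 to 617 lower on both scales, and 5642 to 9239 higher and 336 to 617 lower as deposited. The counts under the other scalings, the pseudocount of 0.1, no filter and all 12 libraries stayed within 1.5 times the main counts. No gene called on both scales had the opposite call under any of the 14 alternatives. Of the 87 called genes named in the text, 86 were still called with the replicate block, 75 in the fit of all 12 libraries, 80 with no filter, 72 with a mean FPKM of at least 5, where 73 were tested, and 57 in all 6 fits that leave out a library. Beyond the block values printed beside the results, the block changed no call of a named gene. Of the 100 neighbours of o2, 25 to 38 were called under the alternatives other than leaving out both replicate 1 libraries, which gave 50. Depth is unknown, so genes near FPKM of 1 have unknown counting error. The cause of these shifts was not tested.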
